A study of Mus musculus with 335 samples.

Results

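Fibrinogen was followed here through its 3 chains, the transcripts Fga, Fgb and Fgg, in mouse mammary tumours, their metastases, cultured tumour cells, liver and lung. The 3 genes are the members, of 20188 genes in the deposited table of RPKM values (reads scaled by transcript length and by the reads counted in the library). They were chosen by their RPKM values in tumours of PyMT transgenic mice against the lung metastases of those mice, in earlier results of the same data, so that contrast is described below without a test. The series holds 335 libraries of bulk tissue or cells in 61 groups, from 281 animals or cell isolates, and 24 of the libraries are of cultured cells. The labels call all samples untreated. Mice of the PyMT, Myc and M6 groups are named by letters given here within each strain or line (for M6, within the orthotopic mice and within the mice injected in the heart), in the order of the numbers in their labels, and a letter marks the same mouse in all its tissues.

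The tumour-bearing mice were of several kinds. Metastases to the lung and the primary tumours came from mice that carried the PyMT transgene in the FVB, BL6, BL10, CAST or MOLF strain background, and from Neu mice on FVB. Strains are named by the strain entry of the labels, and the titles call some BL6 mice BL6N and 5 of the 6 BL10 mice BL10J. Tumours without metastases came from Myc mice on FVB and from C3Tag mice, whose strain entry is FVB or C3Tag. Allografts of 4T1, 4T07, 67NR, D2A1, EMT6, F311 and TSAE1 cells in BALB mice, of E0771 in BL6, of R3T in 129S1J, and of HRM1 (driver Pik3ca), 6DT1 (cMYC), Mvt1 (cMYC and VEGF) and Met1 (PyMT) in FVB were grown orthotopically. M6 cells (SV40T) were placed orthotopically in mice whose strain entry reads REAR, or injected into the heart of FVB mice. In 4 of the 6 Met1 mice with paired lung metastases a resected tumour was sampled beside the primary tumour, and the pairs use the tumour not labelled resected. Some 4T1, 6DT1, Mvt1 and Met1 cells were injected into the tail vein, and Met1 cells also into the heart. Each allograft group is a line grown in 1 strain, so line, driver and host strain move together. Tumour-adjacent lung came from PyMT FVB mice, tumour-adjacent liver from mice with M6, Met1 or 6DT1 cells, and healthy lung and liver from FVB WT mice. The titles of the 4 healthy livers also read FVBxPyMT F1, against a model entry of WT mouse. Of 6DT1 mouse 6, the adjacent liver is labelled as injected into the heart and the liver metastases as injected into the tail vein. In 7 libraries the mouse number in the table's header differs from that in the title, which was followed here (4 of heart-injected M6 mouse B, the lung metastasis of PyMT FVB mouse L, the tumour of PyMT BL6 mouse G and 1 adjacent lung).

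Fibrinogen is a plasma protein built from paired copies of the Aα, Bβ and γ chains, encoded by Fga, Fgb and Fgg. Hepatocytes make nearly all of the circulating protein and secrete it only once the chains are assembled. Thrombin cuts short peptides from the Aα and Bβ chains, after which the remainder polymerises into the fibrin of a clot. All 3 genes are acute-phase genes of the liver, raised by interleukin 6 through Stat3, with Hnf1 and C/EBP factors acting at their promoters. Single chains are also known from epithelia outside the liver, lung among them.

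The 3 genes lie side by side within 42140 bases of mouse chromosome 3 in RefSeq GRCm38.p6, in the order Fgg (chr3:83007724-83015056), Fga (chr3:83026153-83033627) and Fgb (chr3:83042246-83049863), and Fgb is read from the opposite strand. The authors aligned to another build, mm9, so these positions describe the genes and not the reads. The 250 bases before each start are printed because the neighbours were high together in liver and apart from each other in tumours and lung metastases. Capitals mark the letters CTGGGA, part of the interleukin 6 response element described for fibrinogen genes. The windows are chr3:83025903-83026152 on the plus strand for Fga, chr3:83049864-83050113 on the minus strand for Fgb and chr3:83007474-83007723 on the plus strand for Fgg.
Fga: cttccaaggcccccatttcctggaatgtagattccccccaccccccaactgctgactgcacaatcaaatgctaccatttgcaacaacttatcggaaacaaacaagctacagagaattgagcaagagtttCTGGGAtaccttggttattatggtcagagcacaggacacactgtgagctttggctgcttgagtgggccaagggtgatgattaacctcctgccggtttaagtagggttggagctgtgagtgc
Fgb: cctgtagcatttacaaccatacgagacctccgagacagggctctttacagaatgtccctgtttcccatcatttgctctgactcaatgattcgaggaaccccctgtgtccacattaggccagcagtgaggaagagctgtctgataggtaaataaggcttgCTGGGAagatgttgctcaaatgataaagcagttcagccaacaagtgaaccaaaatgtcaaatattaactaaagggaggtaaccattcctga
Fgg: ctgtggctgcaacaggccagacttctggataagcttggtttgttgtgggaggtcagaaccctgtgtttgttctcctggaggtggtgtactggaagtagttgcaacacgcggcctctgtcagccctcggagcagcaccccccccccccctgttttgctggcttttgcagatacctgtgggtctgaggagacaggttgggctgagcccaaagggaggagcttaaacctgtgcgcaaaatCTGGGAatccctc
CTGGGA, searched on both strands, occurred in 3 of the 3 windows, at 121 to 116 bases before the start of Fga, 91 to 86 before Fgb and 13 to 8 before Fgg, and in 27% of 32851 mouse promoter windows of the same length. ATTAAC, one arm of the Hnf1 palindrome, occurred before Fga (43 to 38 bases) and Fgb (29 to 24 bases), and in 6.43% of all windows. TTNCNNNAA, the spaced C/EBP pattern, occurred before Fga and Fgb and in 32.9% of all windows, and in Fga a match at 234 to 226 bases reads on both strands. The matches describe letters in these windows and are no evidence of a bound factor.

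Library depth ran over 8106344 to 54906212 counted reads with a median of 27175852. At the median depth 1 read is worth 0.00731 RPKM for Fga, 0.0122 RPKM for Fgb and 0.0121 RPKM for Fgg, and a value of 0 allows up to 3 reads. The limits cover counting error only. In 3 lung metastasis libraries and 1 tumour library the markers went against the label. Both libraries labelled lung metastasis of M6 mouse C (cells injected into the heart) held Sftpc, the surfactant gene of alveolar cells, at 0 and 0.0436 RPKM. The library labelled lung metastasis of PyMT BL6 mouse D held 0.364 RPKM of Sftpc, and the library labelled tumour of PyMT BL6 mouse G, which the table's header gives to mouse D, held 607 RPKM. Of the other 127 lung metastasis libraries 126 had more than 100 RPKM of Sftpc, and the other tumour libraries had at most 20.9 RPKM. None of these 4 libraries enters a paired comparison. The bulk values cannot tell fewer cells of a type from less RNA per cell.

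Outside liver the 3 chains had different distributions. Fga was a low transcript of lung metastases. Among 127 lung metastasis libraries without those against their label, Fga had 0 reads in 8, a median of 0.225 RPKM and a highest value of 3.29 RPKM, whereas among 130 primary tumour libraries it had 0 reads in 100 and a highest value of 1.96 RPKM. Fgb, the gene of the Bβ chain from which thrombin releases fibrinopeptide B, ran the other way. It had 0 reads in 107 of the 127 lung metastasis libraries with a highest value of 22.0 RPKM, and 0 reads in 50 of the 130 tumour libraries with a highest value of 52.2 RPKM. Fgg, the chain that carries binding sites for platelet and leukocyte integrins, had reads in all 127 lung metastasis libraries (median 0.832 RPKM, highest 34.0 RPKM) and had 0 reads in 23 of the 130 tumour libraries (median 0.130 RPKM, highest 79.3 RPKM). With the libraries against their label put back, Fga had 0 reads in 9 of 130 lung metastasis libraries and 100 of 131 tumour libraries.

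**Figure D1:**
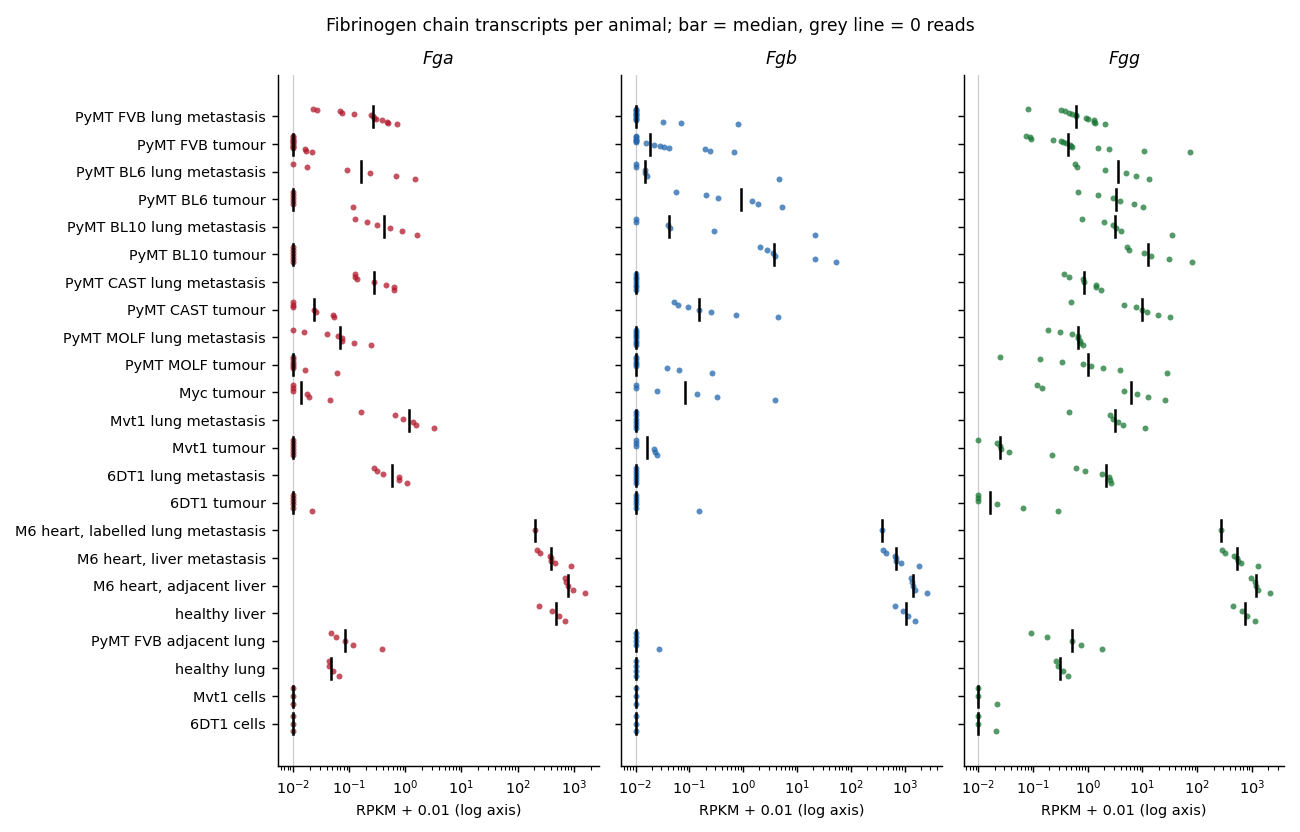
Level of each chain per animal in 23 of the groups, as RPKM + 0.01 on a log axis, with metastases above the tumours of the same model, points for animals and a bar for the median. The liver groups drawn (heart-injected M6 and healthy) and the libraries labelled lung metastasis of heart-injected M6 mouse C stand at 209 RPKM or more, Fga is to the right in lung metastases, and Fgb and Fgg are to the right in PyMT BL10 tumours.

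By their means, the same groups stood at the top for all 3 chains, in differing order. The liver-derived groups, with the library pair labelled lung metastasis of M6 mouse C (heart-injected), took the first 9 places for Fga, Fgb and Fgg. Fga then stood at 4.67 RPKM in the M6 brain metastasis, 3.71 ± 4.62 RPKM in Met1 spleen metastases (SD, n = 2 animals), 1.32 ± 1.09 RPKM in orthotopic Mvt1 lung metastases (SD, n = 6) and 0.871 ± 0.690 RPKM in tail vein Mvt1 lung metastases (SD, n = 6). The ranges of those 2 Mvt1 groups overlap. Fgb stood next in PyMT BL10 tumours at 14.3 ± 20.0 RPKM (SD, n = 6), and Fgg in PyMT BL10 tumours at 24.3 ± 28.5 RPKM (SD, n = 6), PyMT CAST tumours at 12.3 ± 10.6 RPKM (SD, n = 7) and Myc tumours at 8.58 ± 9.86 RPKM (SD, n = 6). Those 3 groups overlap too. At the low end, Fga had 0 reads in all animals of 12 groups, among them BL10 tumours, Mvt1 tumours, Neu tumours and 6 of the 7 cultured lines. In 24 libraries of cultured cells the highest value was 0.0178 RPKM for Fga, 0.0399 RPKM for Fgb and 0.0195 RPKM for Fgg, and Fga had 0 reads in 21 of them.

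The contrast that chose the members is the paired lung metastasis and primary tumour of PyMT mice. In FVB mice (12 pairs) Fga was 0.0123, 0.242 and 0.712 RPKM in metastases (lowest, median, highest), against 0, 0 and 0.0117 RPKM in tumours. Fga was above its own tumour in 12 of 12 FVB pairs, and the groups did not overlap. In BL6 mice (5 pairs, mice A, B, C, E, F) Fga was 0.00790, 0.223, 1.48, 0.0817 and 0.661 RPKM in metastases, and it had 0 reads in all 5 tumours. In BL10 mice (6 pairs, mice A, B, C, D, E, F) Fga was 0.873, 1.62, 0.199, 0.120, 0.307 and 0.522 RPKM in metastases, and it had 0 reads in all 6 tumours. In CAST mice (7 pairs) Fga was 0.117, 0.264 and 0.630 RPKM in metastases (lowest, median, highest), against 0, 0.0140 and 0.0426 RPKM in tumours, again without overlap. In MOLF mice (8 pairs) the gap was small, with 0, 0.0586 and 0.237 RPKM in metastases, against 0, 0 and 0.0501 RPKM in tumours, and 6 pairs higher, 1 lower and 1 equal. On the log2(RPKM + 1) scale the mean difference, metastasis minus tumour, was 0.28 ± 0.067 in FVB, 0.49 ± 0.24 in BL6, 0.62 ± 0.19 in BL10, 0.36 ± 0.093 in CAST and 0.084 ± 0.037 in MOLF (SE over pairs), values that the offset of 1 keeps small. Without BL6 mouse C, whose metastasis had 1.48 RPKM, the BL6 mean was 0.28. The FVB metastasis at 0.712 RPKM is the library of mouse L whose header has another mouse number, and without that pair the FVB mean was 0.24.

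Fgb had the reverse order in the same pairs. In BL10 mice Fgb was 0.0305, 0, 0, 22.0, 0.0334 and 0.274 RPKM in metastases, against 3.86, 2.80, 3.51, 52.2, 2.03 and 21.5 RPKM in tumours, in the same order of mice. Each of the 6 metastases was below its own tumour, and the metastasis of mouse D, the mouse with the highest tumour, alone stayed above 1 RPKM. In BL6 mice Fgb was 0.00658, 0, 0.00459, 0.00498 and 0 RPKM in metastases, against 1.88, 1.46, 0.323, 5.16 and 0.194 RPKM in tumours. The groups did not overlap in BL6 or in CAST, where all 7 metastases had 0 reads and the tumours had 0.0426, 0.143 and 4.51 RPKM (lowest, median, highest). In FVB the tumours were low as well, with 2 pairs higher in the metastasis, 6 lower and 4 equal, and in MOLF 3 of 8 pairs were lower and 5 equal. The mean log2 difference, metastasis minus tumour, was -0.038 ± 0.094 in FVB, -1.22 ± 0.43 in BL6, -2.21 ± 0.42 in BL10, -0.57 ± 0.33 in CAST and -0.055 ± 0.040 in MOLF (SE). Without CAST mouse B the CAST mean was -0.26, without MOLF mouse B the MOLF mean was -0.016, and without FVB mouse L the FVB mean was 0.022.

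Fgg was the chain present on both sides, with the widest spread among tumours. In BL10 mice Fgg was 2.87, 3.99, 0.770, 34.0, 2.01 and 3.28 RPKM in metastases, against 5.73, 5.26, 10.7, 79.3, 14.6 and 30.3 RPKM in tumours. All 6 BL10 metastases were below their tumours. In CAST mice Fgg was 0.361, 0.839 and 1.76 RPKM in metastases (lowest, median, highest), against 0.486, 9.99 and 32.3 RPKM in tumours, lower in 6 of 7 pairs. In BL6 mice Fgg was 0.622, 2.02, 5.04, 0.579 and 13.4 RPKM in metastases, against 7.10, 3.83, 1.54, 10.1 and 2.83 RPKM in tumours, and neither side was above the other throughout. In FVB mice 9 of 12 pairs were higher in the metastasis, yet the tumour of mouse C held 72.8 RPKM and its metastasis 0.444 RPKM. The mean log2 difference, metastasis minus tumour, was -0.28 ± 0.53 in FVB, and it was 0.21 without that mouse. It was -0.62 ± 0.88 in BL6, -1.71 ± 0.44 in BL10, -2.32 ± 0.63 in CAST and -0.79 ± 0.56 in MOLF (SE). Without MOLF mouse B, whose tumour had 27.8 RPKM, the MOLF mean was -0.31. Healthy lung had 0.253 to 0.427 RPKM of Fgg.

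**Figure D2:**
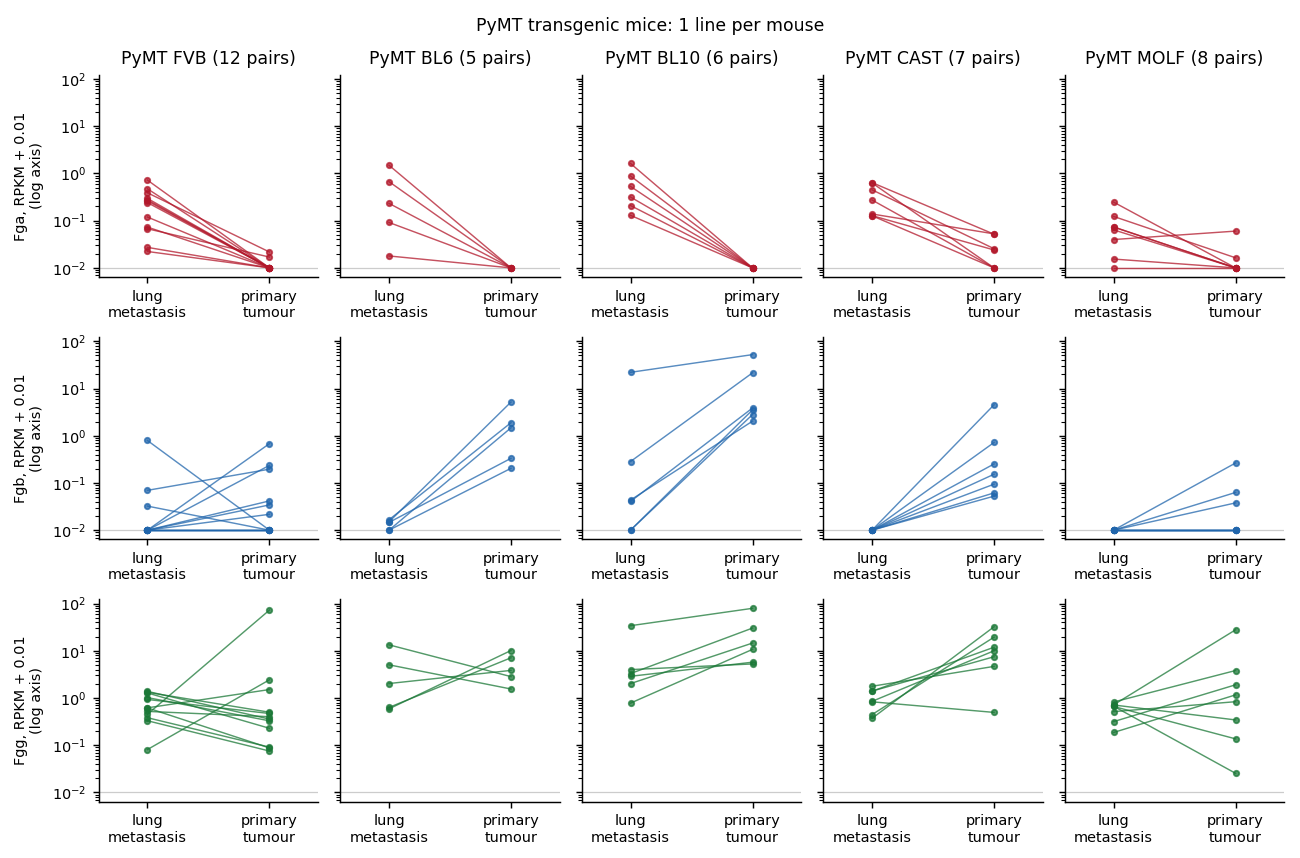
RPKM + 0.01 on a log axis of Fga, Fgb and Fgg in the paired lung metastasis (left) and primary tumour (right) of PyMT mice of 5 strains, 1 line per mouse. Fga lines run down to the tumour in nearly every mouse, Fgb lines run up in BL6, BL10 and CAST, and Fgg lines cross in FVB, BL6 and MOLF.

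Values of other cell types stood beside these differences. The summed level of 8 lung epithelial markers was 373 to 12577 RPKM in BL10 metastases, against 1.65 to 7.35 RPKM in BL10 tumours, and 199 to 75782 RPKM in FVB metastases, against 0.596 to 19.6 RPKM in FVB tumours. Healthy lung, with a sum of 52927 to 88184 RPKM, had 0.0330 to 0.0558 RPKM of Fga. The lowest metastasis was above that range in BL10 (0.120 RPKM) and CAST (0.117 RPKM) and below it in FVB (0.0123 RPKM), BL6 (0.00790 RPKM) and MOLF (0 reads). Over the metastasis-bearing animals of a strain, Pearson r between Fga and the log2 of the summed markers was 0.93 in CAST (n = 7), 0.74 in FVB (n = 13), 0.36 in MOLF (n = 8) and 0.32 in BL10 (n = 6), given as a description because these metastases chose the members. Without the 2 samples farthest from the median sum, r was 0.90 in CAST, 0.42 in FVB, -0.97 in MOLF and 0.40 in BL10, so the FVB and MOLF values rest on those samples. Of 16 hepatocyte markers, at most 3 reached 1 RPKM in any BL10 tumour. Alb, the albumin gene, was at most 0.0309 RPKM in the 12 tumour libraries that had 1 RPKM or more of Fgb and under 1 RPKM of Alb. The other 2 libraries at 1 RPKM or more of Fgb were C3Tag mouse 2, with 30.0 RPKM of Alb, and F311 mouse 1, with 3.82 RPKM. In the 13 tumour libraries with 10 RPKM or more of Fgg, Alb was at most 0.182 RPKM, and in the 10 lung metastasis libraries with 1 RPKM or more of Fga it was at most 0.0824 RPKM.

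The level of a chain also varied within an animal. In 32 of 36 mice with several lung metastasis libraries, Fgg had 10 or more reads in each library. The highest library was 1.07 to 7.33 times the lowest, with a median of 1.89, and 15 mice reached 2-fold. In PyMT BL6 mouse F Fgg was 3.85 RPKM in 1 metastasis and 22.9 RPKM in the other. PyMT FVB mouse F had metastases with 0.0780, 1.07 and 1.20 RPKM of Fgb and no Fgb read in its tumour. Between primary tumours, PyMT FVB mouse S had Fgg at 19.8 RPKM in 1 tumour and 1.24 RPKM in the other.

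Among primary tumours of the 5 PyMT strains Fgb fell into a wide range. It averaged 14.3 ± 20.0 RPKM in BL10 (n = 6), 1.51 ± 1.93 RPKM in BL6 (n = 6), 0.826 ± 1.64 RPKM in CAST (n = 7), 0.0838 ± 0.184 RPKM in FVB (n = 14) and 0.0420 ± 0.0882 RPKM in MOLF (SD, n = 8). The lowest BL10 tumour, at 2.03 RPKM, was above the highest FVB animal, at 0.670 RPKM, and the highest MOLF animal, at 0.255 RPKM, while BL10 overlapped with BL6 and CAST. The BL6 mean includes mouse G, whose library goes against its label, and the 5 other BL6 tumours had 0.194 to 5.16 RPKM. The Myc tumours of mice A to F had Fgg at 8.08, 0.108, 26.2, 0.134, 12.4 and 4.50 RPKM, and Fgb reached 3.82 RPKM in mouse E. In 4 of the mice Fgg was thus at 4.50 RPKM or more, and in 2 it was at 0.134 RPKM or less.

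The chains kept different company in different tissues. Over the 41 PyMT tumour animals the Pearson r on the log2(RPKM + 1) scale was 0.58 between Fgb and Fgg and 0.016 between Fga and Fgg, which became 0.18 without BL6 mouse G. Over 86 animals with lung metastases it was 0.74 between Fga and Fgg and 0.49 between Fgb and Fgg. Without BL10 mouse D those became 0.89 and 0.051. In liver all pairs of chains had r of 0.989 or more, over 12 animals for adjacent and healthy liver and 13 animals for liver metastases. These are descriptions over animals that share strains, tissue makeup and series of identifiers in the labels.

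Other genes were ranked by r averaged over the 3 chains, although the chains did not share 1 pattern in tumours. Over the 41 PyMT tumour animals r between Fga and Fgb was -0.18. Among tumour groups the mean of Fga was highest in F311 (0.498 RPKM, with 1 mouse at 1.96 RPKM) and C3Tag (0.239 RPKM). HRM1 came next at 0.0372 RPKM, so r with Fga over group means leans on few libraries. Over the means of 23 primary tumour groups and 13889 genes the first 10 were Fam25c, Ripply3, R3hdml, Cited1, Mtmr7, Tmem221, Pcp4, Plb1, Sox14 and Muc13. Fam25c had an averaged r of 0.67, and Cited1, a transcriptional co-regulator, had r of 0.93 with Fgb and 0.023 with Fga. Over the 41 PyMT tumour animals the first 10 were Gipc2 (averaged r 0.51), Ptn, Fgfr2, Foxa1, Trim17, Msx2, Robo1, Hist3h2a, BC030870 and H2-Eb1. Foxa1, a forkhead transcription factor, had r of 0.96 with Fgb, 0.58 with Fgg and -0.19 with Fga. Foxa1 was 1.17 to 19.1 RPKM in BL10 tumours, 0.109 to 2.80 RPKM in BL6, 0.0187 to 1.47 RPKM in CAST, 0.00845 to 0.889 RPKM in FVB and 0.0136 to 0.459 RPKM in MOLF. Without BL6 mouse G, whose library goes against its label, 5 of these 10 genes were again among the first 10.

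**Figure D3:**
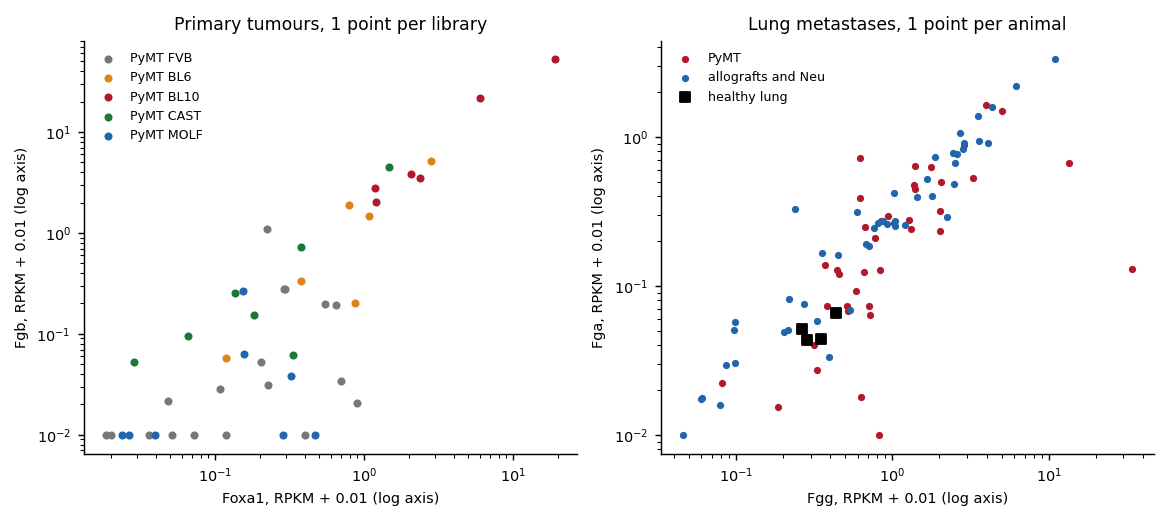
Left, Fgb against Foxa1 in primary tumour libraries of the 5 PyMT strains, and right, Fga against Fgg in lung metastases per animal with healthy lung as squares, all as RPKM + 0.01 on log axes. The highest Fgb values, 21.5 and 52.2 RPKM, are BL10 tumours with the highest Foxa1, and the point far to the right in lung metastases is BL10 mouse D with 34.0 RPKM of Fgg and 0.120 RPKM of Fga.

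Allografts gave pairs that the choice of members did not use. Fga was higher in the lung metastasis than in the orthotopic tumour of the same mouse in 6 of 6 pairs of each of the 5 lines tested, 4T1, 6DT1, Mvt1, Met1 and M6. The exact paired permutation test gave p = 0.03125 (two-sided) in each line, the smallest that 6 pairs allow. In 4T1 mouse 2 and orthotopic M6 mouse B the metastasis had only 0.00766 and 0.00595 RPKM, against 0 reads in the tumour. At the median depth 1 read is worth 0.00731 RPKM, so the 6 of 6 and its p-value in 4T1 and M6 hang on about 1 read. In Mvt1 mice 1 to 6 Fga was 3.29, 1.56, 1.37, 0.894, 0.151 and 0.657 RPKM in metastases, and it had 0 reads in all 6 tumours. In 6DT1 mice 0 to 5 it was 0.761, 0.390, 0.773, 1.06, 0.301 and 0.262 RPKM in metastases, against 0.0118 RPKM in the tumour of mouse 0 and 0 reads in the other tumours. The groups did not overlap in 6DT1, Mvt1 or Met1.

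The other allografts were lower. Fga averaged 0.109 ± 0.0971 RPKM in 4T1 metastases, against 0.00207 ± 0.00507 RPKM in 4T1 tumours (SD, n = 6). It averaged 0.222 ± 0.118 RPKM in Met1 metastases, against 0.00143 ± 0.00351 RPKM in Met1 tumours (SD, n = 6), and 0.246 ± 0.279 RPKM in M6 metastases, against 0.00249 ± 0.00387 RPKM in M6 tumours (SD, n = 6). The log2(RPKM + 1) difference, metastasis minus tumour, was 0.14 ± 0.049 in 4T1, 0.63 ± 0.12 in 6DT1, 1.09 ± 0.26 in Mvt1, 0.28 ± 0.058 in Met1 and 0.29 ± 0.13 in M6 (SE).

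Fgg was higher in 6 of 6 pairs of 6DT1 and of Mvt1 (exact p = 0.03125 each). In Mvt1 mice 1 to 6 Fgg was 11.0, 4.35, 3.50, 2.85, 0.441 and 2.52 RPKM in metastases, against 0.215, 0.0162, 0.0257, 0.0124, 0.0145 and 0 RPKM in tumours. In 6DT1 mice 0 to 5 it was 2.58, 1.79, 2.43, 2.70, 0.588 and 0.864 RPKM in metastases, against 0.273, 0, 0.0570, 0, 0 and 0.0122 RPKM in tumours. Neither pair of groups overlapped. It was higher in 5 of 6 pairs of 4T1 (exact p = 0.281), Met1 (exact p = 0.0938) and M6 (exact p = 0.0625), where the test did not reach 0.05. The log2 difference was 0.27 ± 0.20 in 4T1, 1.32 ± 0.19 in 6DT1, 2.01 ± 0.37 in Mvt1, 0.53 ± 0.23 in Met1 and 0.53 ± 0.20 in M6 (SE). Healthy lung had 0.253 to 0.427 RPKM of Fgg. That range overlaps with the metastases of 4T1, Met1 and M6 and lies below those of 6DT1 and Mvt1.

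Fgb was near 0 on both sides of these pairs. It had 0 reads in all 6 metastases of 6DT1 and of Mvt1, and its highest value in the pairs was 0.930 RPKM, in the tumour of orthotopic M6 mouse E. In Met1, 5 of 6 pairs were lower in the metastasis and 1 was equal (exact p = 0.0625). No exact test of Fgb in the 5 lines reached 0.05, with p from 0.0625 to 1.

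**Figure D4:**
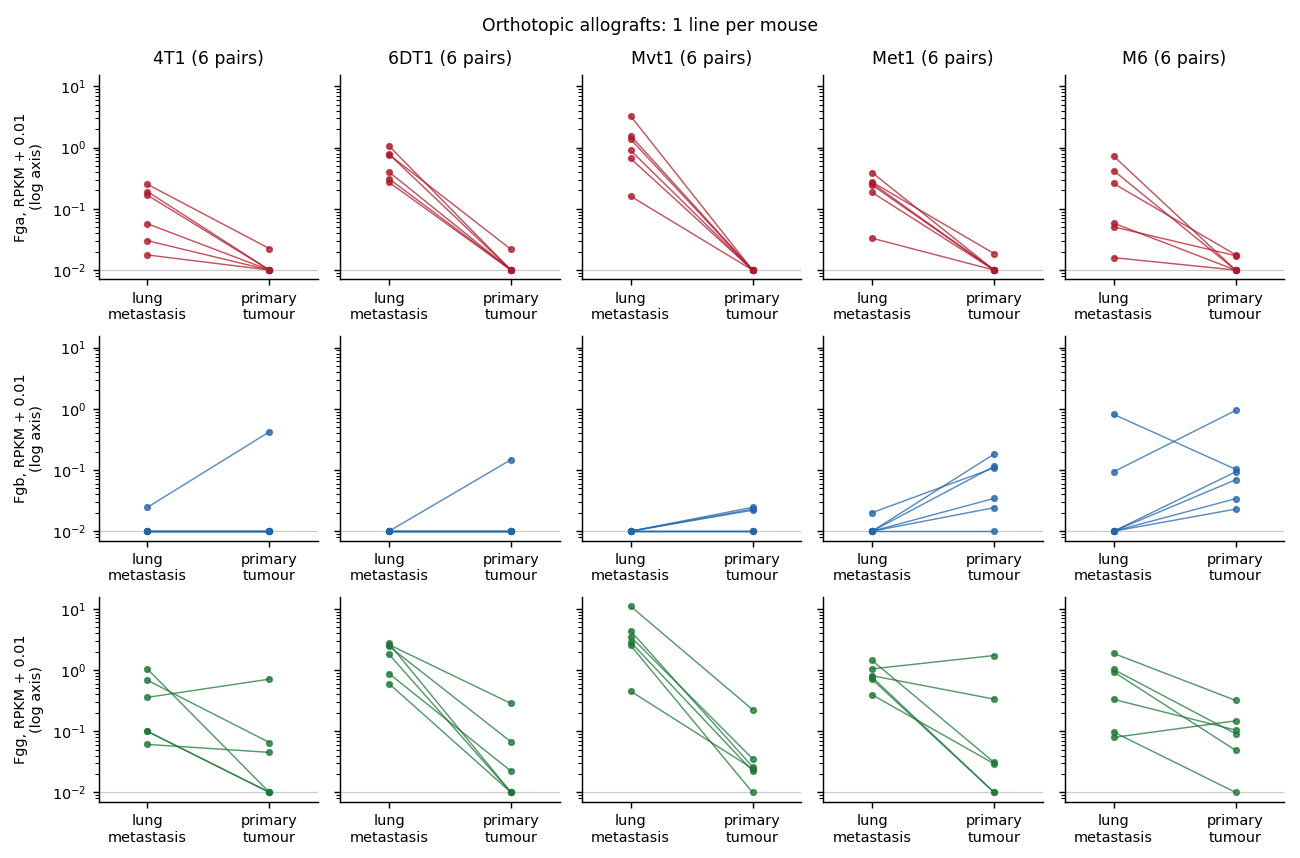
RPKM + 0.01 on a log axis of the 3 chains in paired lung metastases (left) and orthotopic tumours (right) of 5 allograft lines, 1 line per mouse. All Fga lines run down to the tumour, Fgg does so in 6DT1 and Mvt1, and Fgb lies at or near 0 in 4T1, 6DT1 and Mvt1.

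No chain passed the filter of the genome-wide test (1 RPKM in at least 6 profiles) in these 5 comparisons, so the calls come from the fit without the filter. With limma on log2(RPKM + 1), 8.51% of 17507 genes were called at an adjusted p under 0.05 in 4T1, 27% in 6DT1, 18.8% in Mvt1, 0.0507% in Met1 and 4% in M6, and with the filter 34.2% in 6DT1 and 29% in Mvt1. Fga and Fgg were called higher in 6DT1 (adjusted p = 0.0061 and 0.0033) and in Mvt1 (adjusted p = 0.024 and 0.012), by limma with no filter. In 4T1, Met1 and M6 no chain was called (adjusted p 0.088 to 0.87, limma). These calls stand against backgrounds of 27% and 18.8%, so a call is not rare in either line. The lung epithelial markers were higher in all 5 lines, 8 of 8 called each time, so tissue makeup differed between metastasis and tumour. This held also in 4T1, Met1 and M6, where no chain was called. Healthy lung had 0.0412 ± 0.0105 RPKM of Fga (SD). Whether tissue makeup accounts for the differences of the chains was not tested. Over the mice of a group, Pearson r between Fga and the log2 of the summed markers was -0.38 to 0.74 in 7 groups of allograft lung metastases (6 animals each, exact permutation adjusted p 0.62 to 0.98), and Spearman rho was -0.60 to 0.71 (adjusted p 0.56 to 0.92). Without the 2 farthest samples r was -0.55 to 0.92.

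The pathway around fibrinogen was read in 6DT1 and Mvt1 with the filtered fit. In that fit 34.2% of all genes were called in 6DT1 (18.9% higher) and 29.0% in Mvt1 (11.2% higher). The shares were 12.1% in 4T1 (7.36% higher), 4.71% in M6 (3.65% higher) and 0.29% in Met1. A gene near 0 in tumours passes the filter only through its metastases, so it can hardly come out lower. Itih4 in Mvt1 is such a gene, at 0.193 RPKM in tumours and 13.1 RPKM in metastases. The counts of rises here and in the next paragraphs lean that way and are no test of the lists. Of 18 acute-phase genes 12 were tested in each line. In 6DT1 7 rose and 1 fell, with a median log2 difference of 1.33 against -0.01 for all genes, and in Mvt1 7 rose and none fell, with a median of 1.5 against -0.02 for all genes. The lines without a called chain had acute-phase rises too, with 6 of 11 tested genes in 4T1 (median 1.10) and 4 of 11 in M6 (median 1.44), and none of 12 was called in Met1 (median 0.71). Itih4, which encodes a hepatocyte-secreted inhibitor heavy chain, averaged 13.4 ± 5.71 RPKM in 6DT1 metastases, against 1.87 ± 4.47 RPKM in 6DT1 tumours (log2 difference 3.01 ± 0.41, limma adjusted p = 0.0014). Saa3, a serum amyloid gene of tissues outside the liver, averaged 107 ± 54.7 RPKM in 6DT1 metastases, against 15.1 ± 17.3 RPKM in 6DT1 tumours (limma adjusted p = 0.0014), and Lrg1, a leucine-rich glycoprotein, rose as well (limma adjusted p = 0.0012). Healthy lung had 5.65 RPKM of Itih4 and 15.7 RPKM of Lrg1.

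Among 16 genes of interleukin 6 and Stat3 signalling, 7 rose and 1 fell of 15 tested in 6DT1, and 1 rose and 1 fell of 15 in Mvt1. Of all genes 34.2% were called in 6DT1 and 29.0% in Mvt1, so this Mvt1 count is no excess. Socs3, the feedback inhibitor of Jak-Stat signalling, averaged 31.5 ± 6.93 RPKM in 6DT1 metastases, against 17.2 ± 4.56 RPKM in 6DT1 tumours (limma adjusted p = 0.00023). Of 11 genes for regulators of the fibrinogen genes, 4 rose of 5 tested in 6DT1, while 1 rose and 1 fell of 4 in Mvt1. Foxa2, a forkhead factor of liver and lung, averaged 1.76 ± 0.425 RPKM in 6DT1 metastases, against 0.00176 ± 0.00432 RPKM in 6DT1 tumours (limma adjusted p = 8.8e-05), and was 17.6 RPKM in healthy lung. It passed the filter only through the metastases.

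Among the liver coagulation genes, 3 of 4 tested of 19 rose in 6DT1 and 2 of 4 rose in Mvt1, F7 among them in both. These counts and those below stand beside 18.9% of all genes called higher in 6DT1 and 11.2% in Mvt1. Called lower were 15.4% and 17.8%. F7, the serine protease that tissue factor activates, averaged 4.16 ± 1.45 RPKM in Mvt1 metastases, against 1.04 ± 0.591 RPKM in Mvt1 tumours (limma adjusted p = 0.013). Of 15 genes of local clotting and fibrinolysis 8 rose and 1 fell in 6DT1 and 3 rose in Mvt1. Serpinb2, the type 2 plasminogen activator inhibitor, averaged 28.5 ± 10.1 RPKM in 6DT1 metastases, against 1.80 ± 0.744 RPKM in 6DT1 tumours (limma adjusted p = 1.9e-05). Healthy lung had 6.33 RPKM of F7, above these metastases, and 0.167 RPKM of Serpinb2. Of 10 fibrinogen receptor genes 6 of 9 tested rose in 6DT1 and 3 of 9 in Mvt1. Icam1 averaged 39.8 ± 7.29 RPKM in 6DT1 metastases, against 6.46 ± 1.68 RPKM in 6DT1 tumours (limma adjusted p = 7.3e-05), with 117 RPKM in healthy lung. Of 10 genes with a fibrinogen-like domain, 2 rose and 1 fell of 6 tested in 6DT1, and 1 rose and 1 fell of 7 in Mvt1. Of 6 platelet and megakaryocyte genes, 1 rose and 1 fell of 2 tested in 6DT1, and none of 1 in Mvt1. Of 9 mammary luminal genes 1 of 4 tested rose in 6DT1 and none of 4 changed in Mvt1, and no basal gene was called in either.

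The route of the cells was compared in 4T1 and Mvt1. The titles of the Mvt1 tail vein metastases open with Met1, though the sample names within them read Mvt1. Their cell line entry, Mvt1, was followed. In Mvt1, Fga averaged 0.871 ± 0.690 RPKM in tail vein metastases, against 1.32 ± 1.09 RPKM in orthotopic ones (SD, n = 6 each, exact permutation p = 0.442, two-sided). Fgg averaged 3.19 ± 1.83 RPKM in tail vein metastases, against 4.11 ± 3.62 RPKM in orthotopic ones, a log2 difference of -0.13 ± 0.43 (limma adjusted p = 0.91, while 4.25% of genes were called). In 4T1, Fga averaged 0.0337 ± 0.0298 RPKM in tail vein metastases, against 0.109 ± 0.0971 RPKM in orthotopic ones (exact p = 0.119), and Fgg averaged 0.138 ± 0.0962 RPKM in tail vein metastases, against 0.378 ± 0.394 RPKM in orthotopic ones (exact p = 0.216). With no filter 2.99% of genes were called for the 4T1 routes and no chain was among them. These p-values do not show that the routes are alike.

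Lung labelled tumour-adjacent, from PyMT FVB mice, had Fga at 0.0377, 0.0728 and 0.382 RPKM (lowest, median, highest, 5 mice), against 0.0330, 0.0379 and 0.0558 RPKM in healthy lung (4 mice). The means were 0.129 ± 0.144 RPKM in adjacent lung and 0.0412 ± 0.0105 RPKM in healthy lung (SD, exact permutation p = 0.198). Fgg averaged 0.655 ± 0.686 RPKM in adjacent lung and 0.323 ± 0.0785 RPKM in healthy lung (exact p = 0.50), and no chain was called by limma with no filter, where 8.76% of genes were. The 2 kinds of lung carry identifiers of different series in the labels, so the source of the mice and the tissue cannot be told apart.

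Liver is the tissue in which all 3 chains were high. Fga averaged 1226 ± 671 RPKM in tumour-adjacent liver (8 mice), against 474 ± 191 RPKM in healthy liver (4 mice). The adjacent livers were 1569, 714, 718, 794 and 958 RPKM with M6 cells, 1295 and 2715 RPKM with Met1 cells and 1047 RPKM with 6DT1 cells, and the healthy livers were 695, 542, 415 and 245 RPKM. Every adjacent liver was above every healthy liver for Fga. Fgb averaged 2090 ± 983 RPKM in adjacent liver, against 1075 ± 382 RPKM in healthy liver, and Fgg averaged 1591 ± 712 RPKM in adjacent liver, against 762.4 ± 291 RPKM in healthy liver, and for both the ranges overlapped. The log2(RPKM + 1) difference, adjacent minus healthy, was 1.32 ± 0.34 for Fga, 0.92 ± 0.30 for Fgb and 1.04 ± 0.29 for Fgg (SE).

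The tests of those differences were split. The exact permutation test of each chain by itself gave p = 0.0061 for Fga, 0.024 for Fgb and 0.010 for Fgg (two-sided, 8 mice against 4). Limma over all genes called no chain, with adjusted p of 0.058, 0.15 and 0.084, while 1.14% of 8713 genes were called. After rescaling the libraries to the median ratio, where 1350 of 8557 genes were called, limma called all 3 (adjusted p = 0.0066, 0.020 and 0.011). With the M6 adjacent livers alone Fga was called (limma adjusted p = 0.021). Leaving out M6 mouse C gave calls for all 3 chains, M6 mouse D or 6DT1 mouse 6 for 2, and M6 mouse E or Met1 mouse 8 for 1 (limma). The shares of all genes called with the M6 livers alone or on leaving out a mouse are not given here. How rare a call was in those fits therefore cannot be read from these counts. Fgl1, a hepatocyte protein with a fibrinogen-like domain, was called higher, at 500 ± 309 RPKM in adjacent liver, against 136 ± 23.5 RPKM in healthy liver (log2 difference 1.68 ± 0.38, limma adjusted p = 0.043). None of 18 acute-phase genes and none of 19 liver coagulation genes was called, with medians of 1.09 and 0.38 against 0.02 for all genes, and Trf was the 1 gene of 16 hepatocyte genes called (limma adjusted p = 0.0496).

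Relative to Alb, the chains were also higher beside tumours. Fga was 6.27 ± 2.35% of Alb in adjacent liver, against 2.56 ± 0.529% in healthy liver (exact permutation p = 0.0040), with no overlap. Fgb was 10.8 ± 3.38% in adjacent liver, against 5.88 ± 0.904% in healthy liver (exact p = 0.010), and Fgg was 8.28 ± 2.74% in adjacent liver, against 4.14 ± 0.677% in healthy liver (exact p = 0.0081). The chains were not in one ratio in both kinds of liver. The RPKM of Fga over that of Fgb was 0.574 ± 0.0457 in adjacent liver (0.505 to 0.640), against 0.434 ± 0.0389 in healthy liver (0.377 to 0.464), a difference described here without a test because both are members. The adjacent livers come from mice of other groups than the healthy livers, so the mouse source, the tumour and the handling cannot be told apart.

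**Figure D5:**
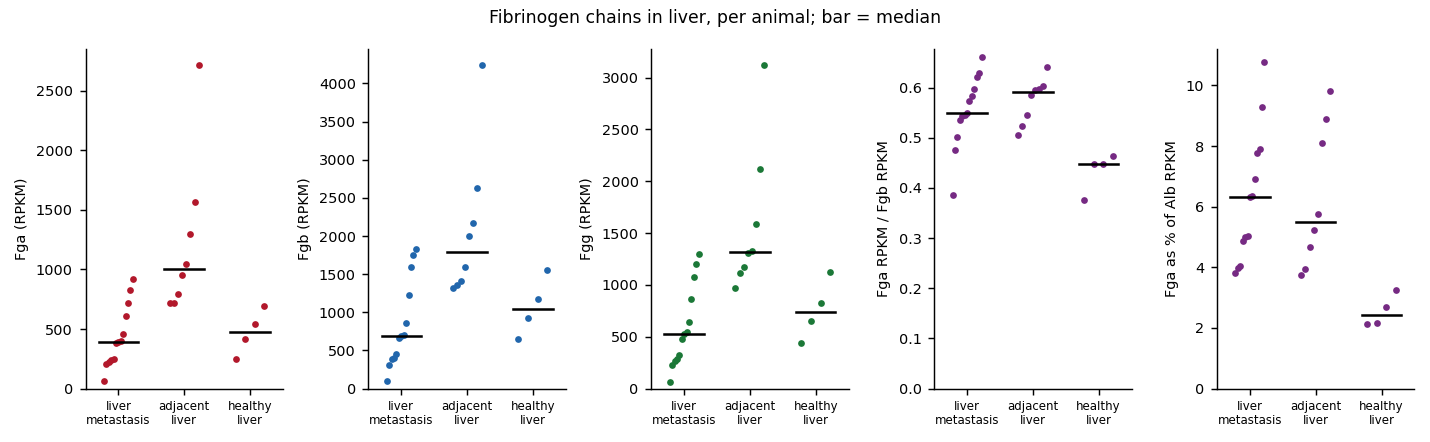
RPKM of each chain, the ratio of Fga to Fgb, and Fga as percent of Alb in liver metastases, tumour-adjacent liver and healthy liver, 1 point per animal and a bar for the median. Adjacent livers lie above healthy livers for Fga, for the ratio and for the percent of Alb, and liver metastases spread from 61 to 916 RPKM of Fga.

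Metastases in the liver were compared with the adjacent liver of the same mouse after M6 cells were injected into the heart (5 pairs, mice B, C, D, E, F). Fga was 394, 219, 247, 384 and 398 RPKM in metastases, against 1569, 714, 718, 794 and 958 RPKM in adjacent liver, lower in 5 of 5 pairs. The log2 difference, metastasis minus adjacent liver, was -1.53 ± 0.17 for Fga, -1.52 ± 0.18 for Fgb and -1.64 ± 0.17 for Fgg, with limma adjusted p of 2.5e-09, 7.9e-09 and 8.7e-10. Limma called 93% of the genes in this comparison and the median gene was 1.33 higher in the metastases, so that being called says little here. After rescaling the differences were -2.82, -2.81 and -2.94, beside a median gene of 0.37. The exact paired test gave 0.0625 for each chain, the smallest that 5 pairs allow.

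The chains went with the hepatocyte genes. All 16 hepatocyte genes were called lower in these metastases (median -1.64), as were 18 of 19 liver coagulation genes (median -1.56) and 14 of 18 acute-phase genes (median -1.01). Of all genes 11.4% were called lower and 81.6% higher. Fgb was 13.1 ± 1.66% of Alb in metastases, against 10.6 ± 3.59% in adjacent liver, higher in 5 of 5 pairs (exact paired p = 0.0625), and Fga was 7.36 ± 1.25% in metastases, against 6.09 ± 2.35% in adjacent liver, higher in 4 of 5 pairs (exact paired p = 0.125). Fgg was 9.69 ± 1.83% in metastases, against 8.53 ± 2.92% in adjacent liver, higher in 5 of 5 pairs (exact paired p = 0.0625). Epcam, the epithelial adhesion gene of the tumour cells, averaged 359 ± 82.2 RPKM in metastases, against 0.459 ± 0.174 RPKM in adjacent liver (limma adjusted p = 1.4e-24).

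Orthotopic M6 mice had both liver and lung metastases in 3 animals (mice C, E, F). Fga was 61, 241 and 202 RPKM in liver metastases, against 0.0408, 0.718 and 0.412 RPKM in lung metastases. The log2 difference, liver minus lung, was 6.74 ± 0.30 for Fga, 7.51 ± 0.36 for Fgb and 6.41 ± 0.25 for Fgg, and limma called each (adjusted p = 0.00012, 0.00020 and 6.8e-05), against 8.38% of genes. All 16 hepatocyte genes were called higher in the liver metastases of the same mice. With 3 pairs the exact test cannot go below 0.25.

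The libraries labelled lung metastasis of heart-injected M6 mouse C held liver levels, with Fga at 216 and 202 RPKM, Fgb at 392 and 375 RPKM and Fgg at 290 and 258 RPKM. Its liver metastases had 216 and 223 RPKM of Fga, and Alb was 3201 and 3049 RPKM in the libraries labelled lung metastasis. All 16 hepatocyte genes reached 1 RPKM there.

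Alb was also measured beside the chains at other sites. In 17 libraries outside liver Alb was 1 RPKM or more. The spleen metastasis of Met1 mouse 6 had 6.98, 10.5 and 7.89 RPKM of Fga, Fgb and Fgg with 82.7 RPKM of Alb, so Fga, Fgb and Fgg were 8.44, 12.7 and 9.54% of Alb. The M6 brain metastasis of mouse B had 4.67, 7.53 and 7.40 RPKM with 70.9 RPKM of Alb, that is 6.59, 10.6 and 10.4% of Alb. The C3Tag tumour of mouse 2 had 0.599, 1.80 and 2.09 RPKM, or 2.00, 6.00 and 6.97% of Alb. Adjacent spleens of Met1 mice had 0.175 and 0.212 RPKM of Fga with 3.88 and 2.77 RPKM of Alb. In adjacent liver Fga was 3.75 to 9.83% of Alb. F311 mouse 1 was apart, with 51.3, 69.1 and 58.0% of Alb. Beside those of heart-injected M6 mouse C, 3 lung metastasis libraries had 1 RPKM or more of Alb. That of PyMT FVB mouse L had 0 reads of Fgb beside 9.14 RPKM of Alb and 0.712 RPKM of Fga. The tail vein Met1 library had 0.0429 RPKM of Fgb beside 8.20 RPKM of Alb. Orthotopic M6 mouse F had 0.801 RPKM of Fgb, 14.5% of its Alb.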

How the data were processed

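RNA of snap-frozen tissue or cells was sequenced on a HiSeq2500, per the labels' protocols. The authors deposited 1 table of RPKM values, and TopHat, DESeq2 and mm9 are named in the submitters' processing notes without versions. In the 11071 genes whose low values showed read steps, 99.993% of the values came out as whole reads (tolerance 0.001 read). Several libraries of 1 tissue of 1 animal were averaged on the log2(RPKM + 1) scale. The 3 members, the gene lists and the comparisons were chosen with earlier results of these data known, so the PyMT contrast has no test. In 11 other comparisons limma 3.58.1 (R 4.3.3) was fitted over all genes at 1 RPKM or more in at least as many animals as the smaller group, with trend, robust moderation, the animal as block where tissues were paired, and Benjamini-Hochberg adjusted p under 0.05. The pairing comes from the animal numbers in the labels. In 12 paired comparisons, 51 of 76 pairs had deviations correlated over 0.1. The fit was tested on simulated data with known changes. Single values had exact permutation tests (two-sided). The p-values set a difference against the variation between these animals and do not measure that variation. Named genes were the 10 most alike and up to 3 called genes per list with the smallest adjusted p. Promoters are from RefSeq GRCm38.p6. Where labels disagreed, the title, the source entry or the cell line entry was followed.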

Additional observations from a re-analysis of the deposited data

Results flagged for a closer look

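Animals that stood apart were looked for in 39 combinations of a group and a chain in which some animal reached 1 RPKM. In 9 of them an animal stood apart from the rest of its group. Other combinations that reached 1 RPKM, in the smallest and largest groups, were left out. Among those are the PyMT FVB tumours, where mouse C had 72.8 RPKM of Fgg. Another 65 combinations with every animal under 1 RPKM were not looked at. Each animal that stood apart was the highest of its group. Keeping combinations through a high value favours such animals, so 9 of 39 has no chance rate to be set against. In PyMT mice the lung metastasis of BL10 mouse D stood apart at 22.0 RPKM of Fgb and 34.0 RPKM of Fgg, and its tumour had the highest Fgb and Fgg of its group. The library labelled lung metastasis of BL6 mouse D stood apart at 4.56 RPKM of Fgb. The CAST tumour of mouse B had 4.51 RPKM of Fgb, and the MOLF tumour of mouse B had 27.8 RPKM of Fgg. The Myc tumour of mouse E had 3.82 RPKM of Fgb. In allografts, the F311 tumour of mouse 1 had 1.96 RPKM of Fga, and the Met1 tumour of mouse LW1 had 1.71 RPKM of Fgg. In liver, the adjacent liver of heart-injected M6 mouse B had 2636 RPKM of Fgb.

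Fgg moved in opposite directions between models. It was higher in the lung metastasis of every pair of 6DT1 (log2 difference 1.32) and of Mvt1 (2.01), and lower in every pair of PyMT BL10 (-1.71), and the difference between the models was not tested.

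Samples outside the tested comparisons also held the chains. The libraries labelled lung metastasis of heart-injected M6 mouse C averaged 209 RPKM of Fga, 384 RPKM of Fgb and 274 RPKM of Fgg. The M6 brain metastasis of mouse B had 4.67, 7.53 and 7.40 RPKM of Fga, Fgb and Fgg. The spleen metastasis of Met1 mouse 6 had 6.98, 10.5 and 7.89 RPKM of them.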

How the results depend on the processing

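With no filter on low values 2 members were called in 6DT1 and 2 in Mvt1, against 0 with the filter, which no chain passed in these lines. Leaving out 1 mouse gave 0 to 1 members called in Mvt1, with 1 called without mouse 5. Without that mouse Fgg passed the filter, and only through its metastases (2.52 to 11.0 RPKM), since no tumour was above 0.215 RPKM. That call is thus no support for a difference, and the share of all genes called in that fit is not given here. In adjacent against healthy liver, 3 members were called after rescaling, 1 with the M6 livers only, and 0 to 3 on leaving out 1 mouse, against 0. The rescaled fit called 1350 of 8557 genes, and the shares of the M6-only and leave-one-out fits are not given here. With a pseudocount of 0.1 the PyMT differences grew for Fga to 1.42 in FVB, 1.90 in BL6, 2.46 in BL10, 1.63 in CAST and 0.54 in MOLF, and for Fgb to -3.48 in BL6, -4.34 in BL10, -1.94 in CAST and -0.35 in MOLF, since the offset of 1 sits above most of these values. The Mvt1 route difference of Fgg changed sign to 0.04 without tail vein mouse 6 and to 0.18 without orthotopic mouse 1, and ran from -0.44 to 0.18 on leaving out 1 mouse. The fits with no replicate block gave the same number of members called, 3, in both M6 liver comparisons. In the 5 comparisons of lung metastases these fits kept the filter, which no chain passed. Their count of 0 was thus fixed and does not show what dropping the block does to the chains there. Over all PyMT BL6 animals, without pairing, the Fgb difference was -0.61 against -1.22 in pairs, and it was -1.22 again without the 2 libraries against their label, an alternative chosen after seeing the data. On leaving out 1 mouse the Fgg difference ran from -1.15 to -0.07 in BL6 and from -1.0 to -0.31 in MOLF, and the BL6 Fga difference from 0.28 to 0.61. Of the values that answer a comparison, 322 kept their count of calls or moved by less than the SD between animals, and 19 moved further. A chain at 0 reads is not shown to be absent, since 3 reads could have been missed at this depth.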
